A study of Mus musculus with 6 samples.

Results

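The genes described here encode the proteins that carry sodium and chloride currents and the sodium-potassium pump of the muscle fiber surface, 6 of the 37979 genes in the table. They were chosen by symbol, and each symbol matched 1 row: *Scn4a* and *Scn4b* (sodium channel subunits), *Clcn1* (chloride channel), *Atp1b1* and *Atp1b2* (beta subunits of the Na/K-ATPase) and *Fxyd1* (regulatory subunit of the Na/K-ATPase). Total RNA came from the hindlimb gastrocnemius (GAS) muscles of 3 wildtype (WT) and 3 Kvβ2 knockout (KO) mice, with 1 library per mouse. The mice were untreated males, 20 weeks of age, and both genotypes were bred from hemizygous Kvβ2 null parents, so that the KO mice lack Kvβ2 (gene *Kcnab2*) in every tissue. The libraries of each genotype carry the replicate numbers 1, 7 and 8, and the question was how the genotypes differ in gene expression.

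In a skeletal muscle fiber the action potential starts when Nav1.4, the sodium channel encoded by *Scn4a*, opens at the neuromuscular junction and along the surface and the transverse tubules. Nav1.4 works with small beta subunits, among them that of *Scn4b*. The chloride channel ClC-1, encoded by *Clcn1*, carries most of the resting conductance of the fiber and keeps it from firing repeatedly, and its loss causes myotonia. The Na/K-ATPase then pumps sodium out and potassium back in. It is built from an alpha subunit that splits ATP and a beta subunit needed for its folding and transport to the membrane. FXYD1 (phospholemman, from *Fxyd1*) binds the pump and changes its affinity for sodium when it is phosphorylated. Kvβ2 is a cytoplasmic partner of voltage-gated potassium channels, which end the action potential.

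Sequence windows upstream of the annotated transcription start were found in the RefSeq table (GRCm38.p6) for 5 members (*Scn4a*, *Scn4b*, *Clcn1*, *Atp1b1* and *Fxyd1*), and *Atp1b2* had no entry. The 250 bases before the start are shown for a member of each kind whose window holds no annotated exon: the chloride channel, the beta subunit that varied most among libraries, and the member that differed most between the genotypes. Capitals mark E-boxes (CANNTG, which reads the same on both strands), MEF2 sites and GC boxes (GGGCGG, both strands).
*Clcn1*, plus strand, chr6:42286435-42286684: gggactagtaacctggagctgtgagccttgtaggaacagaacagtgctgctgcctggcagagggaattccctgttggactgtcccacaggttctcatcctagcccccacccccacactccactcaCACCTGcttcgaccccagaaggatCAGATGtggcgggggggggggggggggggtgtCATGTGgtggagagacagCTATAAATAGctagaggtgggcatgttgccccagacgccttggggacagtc
*Atp1b1*, minus strand, chr1:164458356-164458605: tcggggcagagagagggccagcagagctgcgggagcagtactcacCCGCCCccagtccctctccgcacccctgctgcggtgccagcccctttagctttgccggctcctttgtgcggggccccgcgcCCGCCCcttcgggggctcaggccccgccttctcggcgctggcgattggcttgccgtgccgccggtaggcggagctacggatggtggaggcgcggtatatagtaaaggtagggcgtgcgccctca
*Fxyd1*, minus strand, chr7:31054854-31055103: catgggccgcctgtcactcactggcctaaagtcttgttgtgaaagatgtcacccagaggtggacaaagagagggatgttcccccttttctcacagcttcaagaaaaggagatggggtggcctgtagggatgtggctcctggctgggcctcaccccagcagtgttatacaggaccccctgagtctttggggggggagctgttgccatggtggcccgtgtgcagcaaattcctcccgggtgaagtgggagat
The *Clcn1* window held 3 E-boxes and 1 MEF2 site, which overlaps a TATAAA box and lies 51 to 42 bases before the start. Of all 32851 windows of that length in the table, 66.2% held an E-box, 2.92% a MEF2 site, 12.4% a TATAAA box on either strand and 32.7% a GC box. The *Atp1b1* window held 2 GC boxes and none of the other motifs, and the *Fxyd1* window held none of these motifs. The *Fxyd1* window lies inside the annotated gene (31051678 to 31057199), which has 17 annotated transcripts. Those of *Clcn1* and *Atp1b1* lie just outside their genes. The share of G and C was 70.4% in the *Atp1b1* window, 60.0% in that of *Clcn1* and 57.2% in that of *Fxyd1*, against a median of 52.4% over all windows. A match describes these letters and is not a measured binding site.

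The deposited values are FPKM (fragments scaled to transcript length and library depth), and the depth was estimated from low values that fell on steps of whole fragments. It was 13990000 to 18180000 fragments in the KO and 19270000 to 20210000 in the WT libraries, with each KO library shallower than each WT library. *Kcnab2* was at 0.10 to 0.233 FPKM in WT muscle, and only KO replicate 7 had a value above 0 among the KO mice (0.0151 FPKM). Some libraries stood apart. WT replicate 8 had the lowest level of 9 of the 10 genes on a slow fiber list, which averaged there 1.39 on the log2 FPKM scale against 4.89 to 7.14 in the other libraries. WT replicate 1 had the lowest summed level of 8 skeletal muscle markers (11199 FPKM, against 22812 to 26628 FPKM in the KO libraries), and KO replicate 7 the highest summed level of 5 adipocyte markers (529 FPKM, against 225 to 426 FPKM in the WT libraries). In bulk muscle, fewer fibers of a type and less RNA per fiber cannot be told apart. The log2 fold change of a gene also rose with the GC content of its transcripts (Spearman's rho = 0.70 over 11985 genes, which are no independent replicates of each other). The result of each member is therefore given with its log2 fold change after each library was corrected for that trend. Values of the cell type marker lists are given without this correction unless it is named.

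All 6 genes were well above the filter of the test (a mean of at least 0.5 FPKM), and each value rests on at least 283 fragments, by the shortest annotated coding transcript. The genotypes were compared by limma on the log2(FPKM + 0.1) values of 12334 genes, and a gene counted as called at a Benjamini-Hochberg adjusted p under 0.05. Of the 6 genes, 0 were called (1 had an unadjusted p under 0.05, with limma), beside 0.324% of all genes tested (0.251% higher and 0.073% lower in KO muscle). That share depends on genes listed at 0 in some library, and no member is such a gene. With those genes left out, 1 of 12092 genes was called as higher and 0 as lower. At an unadjusted p under 0.05, 1 of the 6 was higher and 0 lower, where the shares of all genes were 15.3% and 10.9% (26.2% in all). After GC correction 0 members were called, beside 0.117% of all genes (0.0501% higher and 0.0668% lower). At an unadjusted p under 0.05, *Fxyd1* was then higher and *Scn4b* lower, beside 5.72% and 5.47% of all genes (11.2% in all). The median log2 fold change of the 6 genes was 0.11, against 0.01 over all genes tested, and after GC correction it was 0.013 against 0.001. For *Fxyd1* and *Scn4a* each KO value was higher than each WT value, which also held for 18.3% of all genes tested. The reverse order held for 0 members and 16.2% of all genes, so that 2 of 6 members and 34.5% of all genes showed no overlap.

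**Figure D1:**
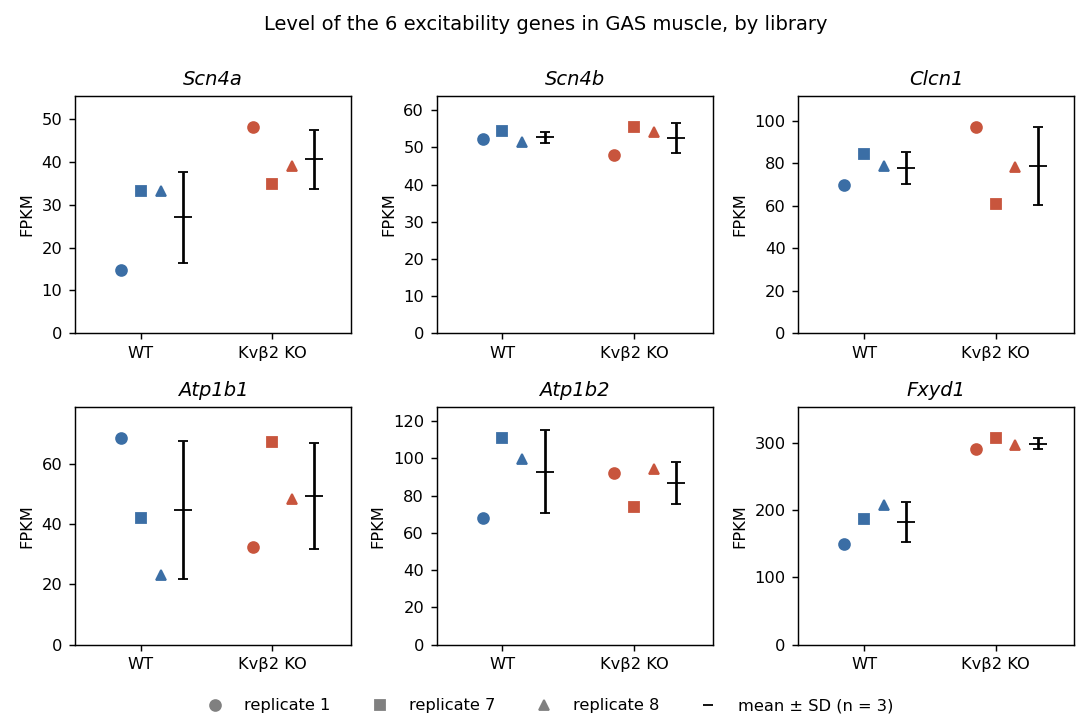
FPKM of the 6 genes in each library of WT (blue) and Kvβ2 KO (red) GAS muscle, each panel on its own axis from 0. Markers give the replicate number and the black bar the mean ± SD (n = 3). All KO points lie above all WT points for *Fxyd1* and *Scn4a* and for no other panel.

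*Fxyd1* (ENSMUSG00000036570, minus strand of chromosome 7, 31051678 to 31057199 of GRCm38) had the highest level of the 6 genes in both genotypes. It was at 150, 187 and 208 FPKM for WT replicates 1, 7 and 8, against 291, 308 and 297 FPKM for KO replicates 1, 7 and 8. The KO libraries lay close together and well above the highest WT library. The means were 182 ± 29.4 FPKM for WT against 299 ± 8.31 FPKM for KO muscle (SD, n = 3 each), a log2 fold change of 0.73 (standard error 0.14, limma adjusted p = 0.0667). The 95% interval of that change ran from 1.33-fold to 2.07-fold. The transcripts of *Fxyd1* have a GC content of 57.1%, and the 1031 tested genes within 1 percentage point of it had a median log2 fold change of 0.46, with 19.5% of them above *Fxyd1*. After GC correction the log2 fold change was 0.28 (standard error 0.08, limma adjusted p = 0.321). With limma's array weights, which give each library its own weight, it was 0.67 and the gene was called (adjusted p = 0.00644), under a setting that called 1863 genes as higher and 1284 as lower.

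The beta subunits of the pump varied more within the genotypes than between them. *Atp1b1* (ENSMUSG00000026576, minus strand of chromosome 1, 164437109 to 164458355) was at 68.5, 41.8 and 23.01 FPKM for WT replicates 1, 7 and 8, against 32.2, 67.1 and 48.4 FPKM for KO replicates 1, 7 and 8. Each genotype thus had a high and a low library, and the highest and the lowest value were both WT. The means were 44.4 ± 22.9 FPKM for WT against 49.3 ± 17.5 FPKM for KO muscle (SD, n = 3 each), and the log2 fold change was 0.22 (standard error 0.41, limma adjusted p = 0.758), with a 95% interval from 0.600-fold to 2.27-fold, and 0.14 after GC correction. Single libraries of both genotypes moved it, since the log2 fold change was 0.60 without WT replicate 1, 0.50 without KO replicate 1, -0.03 without KO replicate 7 and -0.18 without WT replicate 8.

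*Atp1b2* (ENSMUSG00000041329, minus strand of chromosome 11, 69599736 to 69605942) was at 68.2, 111 and 99.6 FPKM for WT replicates 1, 7 and 8, against 91.998, 73.8 and 94.2 FPKM for KO replicates 1, 7 and 8. Its lowest libraries, WT replicate 1 and KO replicate 7, were the highest for *Atp1b1*. The means were 92.97 ± 22.2 FPKM for WT against 86.7 ± 11.2 FPKM for KO muscle (SD, n = 3 each), and the log2 fold change was -0.08 (standard error 0.20, limma adjusted p = 0.824), with a 95% interval from 0.688-fold to 1.30-fold, and -0.17 after GC correction. Without WT replicate 1, the log2 fold change was -0.29.

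Within a library, which leaves out any scaling between libraries, the *Atp1b1* to *Atp1b2* ratio was 1.005, 0.376 and 0.231 for WT replicates 1, 7 and 8, against 0.350, 0.909 and 0.514 for the KO replicates. The mean log2 ratio was -1.17 ± 1.08 (SD, n = 3) in WT and -0.87 ± 0.69 (SD, n = 3) in KO muscle, a difference of 0.30 that was smaller than either spread (exact permutation test, two-sided, p = 0.8). Of the summed FPKM of the 4 beta subunits, *Atp1b1* made up 16.5% to 42.8% in WT and 22.7% to 41.8% in KO libraries, *Atp1b2* 42.6% to 71.4% and 45.97% to 64.6%, *Atp1b3* 11.2% to 13.6% and 10.5% to 11.9%, and *Atp1b4* 1.03% or less. The *Atp1b1* to *Atp1b2* ratio and the shares of both genes in KO muscle thus lay inside the wider WT range, while the share of *Atp1b3* was steady.

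The slow fiber list, which holds the slow myosin *Myh7* and other genes of slow fibers, was set beside the members after their values were seen. *Atp1b1* was lowest in the library with the lowest slow fiber level (WT replicate 8) and next lowest in the library with the second lowest (KO replicate 1). Over the 6 libraries its log2 FPKM went with the mean log2 FPKM of the 10 slow fiber genes with Pearson's r = 0.85 (exact permutation test, two-sided, p = 0.0417) and Spearman's rho = 0.77 (exact permutation p = 0.103). This was 1 of 8 such relations, and adjusted over them (Benjamini-Hochberg) the exact permutation p-values were 0.333 and 0.467. Without the 2 libraries farthest from the median slow fiber level, WT replicate 8 and KO replicate 8, r was 0.95 for *Atp1b1*, but it was also -0.98 for *Clcn1* and 0.86 for *Scn4b*, so a high value over the 4 libraries left was not particular to *Atp1b1*. KO replicate 8, with the highest slow fiber level, was not the highest for *Atp1b1* (48.4 FPKM, under WT replicate 1 and KO replicate 7). Taken as deviations from the genotype means, r was 0.87 for *Atp1b1*, -0.34 for *Atp1b2* and -0.69 for *Fxyd1*. For *Atp1b2* the same relation had r = -0.37 (exact permutation p = 0.475, adjusted p = 0.853), and for *Fxyd1* r = 0.22 (exact permutation p = 0.708, adjusted p = 0.944).

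**Figure D2:**
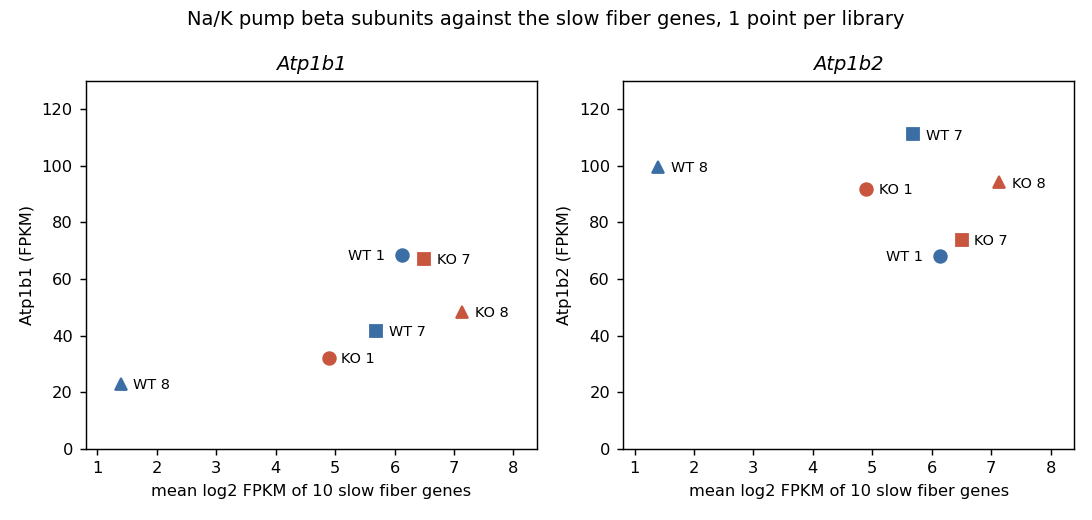
FPKM of *Atp1b1* (left) and *Atp1b2* (right) against the mean log2 FPKM of 10 slow fiber genes, 1 point per library, WT in blue and KO in red. *Atp1b1* runs from 23.01 FPKM in WT replicate 8, at the low end of the slow fiber genes, to 68.5 FPKM in WT replicate 1, while *Atp1b2* lies between 68.2 and 111 FPKM.

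*Scn4a* (ENSMUSG00000001027, minus strand of chromosome 11, 106318592 to 106353288) had the lowest mean level of the 6 genes in both genotypes. It was at 14.8, 33.1 and 33.2 FPKM for WT replicates 1, 7 and 8, against 48.2, 34.8 and 38.9 FPKM for KO replicates 1, 7 and 8. WT replicate 1 lay far under the other WT libraries, and WT replicates 7 and 8 were only slightly under KO replicate 7. The means were 27.03 ± 10.6 FPKM for WT against 40.7 ± 6.87 FPKM for KO muscle (SD, n = 3 each), a log2 fold change of 0.67 (standard error 0.31, limma adjusted p = 0.221), with a 95% interval from 0.955-fold to 2.64-fold. Without WT replicate 1 the log2 fold change was 0.28 (limma adjusted p = 0.318), and after GC correction it was 0.39 (adjusted p = 0.630). WT replicate 1 was also the lowest library for *Fxyd1* and the one with the lowest summed muscle markers, and the part of this in the result was not tested.

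*Scn4b* (ENSMUSG00000046480, plus strand of chromosome 9, 45138395 to 45154152) was the steadiest of the 6 genes. It was at 52.2, 54.4 and 51.5 FPKM for WT replicates 1, 7 and 8, against 47.99, 55.6 and 54.3 FPKM for KO replicates 1, 7 and 8. The whole range of the 6 libraries spanned 0.21 on the log2 scale, and the genotypes overlapped. The means were 52.7 ± 1.48 FPKM for WT against 52.6 ± 4.06 FPKM for KO muscle (SD, n = 3 each), and the 95% interval of the change ran from 0.845-fold to 1.18-fold (limma adjusted p = 0.981). Genes of the same GC content (54.5%, within 1 percentage point) had a median log2 fold change of 0.27, and after GC correction that of *Scn4b* was -0.28 (standard error 0.10, limma adjusted p = 0.375). The *Scn4b* to *Scn4a* ratio within a library was 3.53, 1.64 and 1.55 for WT replicates 1, 7 and 8, against 0.995, 1.597 and 1.39 for the KO replicates, with KO replicate 7 inside the WT range (exact permutation test, two-sided, p = 0.2).

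*Clcn1* (ENSMUSG00000029862, plus strand of chromosome 6, 42286685 to 42315756) had similar mean levels in the genotypes. It was at 69.7, 84.5 and 78.7 FPKM for WT replicates 1, 7 and 8, against 97.1, 60.6 and 77.9 FPKM for KO replicates 1, 7 and 8. KO replicates 1 and 7 were the highest and the lowest of the 6 libraries, so the KO values enclosed the WT values. The means were 77.6 ± 7.43 FPKM for WT against 78.6 ± 18.3 FPKM for KO muscle (SD, n = 3 each), and the 95% interval of the change ran from 0.746-fold to 1.33-fold (limma adjusted p = 0.990). After GC correction the log2 fold change was -0.11 (adjusted p = 0.830). The *Clcn1* to *Scn4a* ratio, which sets the resting conductance gene beside the sodium current gene within each library, was 4.71, 2.55 and 2.37 for WT replicates 1, 7 and 8, against 2.01, 1.74 and 2.002 for the KO replicates. All KO ratios lay under all WT ratios. The mean log2 ratio was 1.61 ± 0.54 (SD, n = 3) in WT and 0.94 ± 0.12 (SD, n = 3) in KO muscle, a difference of -0.67 (exact permutation test, two-sided, p = 0.1, and no smaller p is possible with 3 libraries on each side). Without WT replicate 1 the difference was -0.36, and after GC correction it was -0.50. Part of the exons of *Clcn1* (8.2%) and of *Atp1b1* (18.7%) overlap genes on the opposite strand, *Fam131b* at 2.04 to 5.03 FPKM and *Nme7* at 0.682 to 1.08 FPKM, and the sources used here do not give whether the counting used strand.

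**Figure D3:**
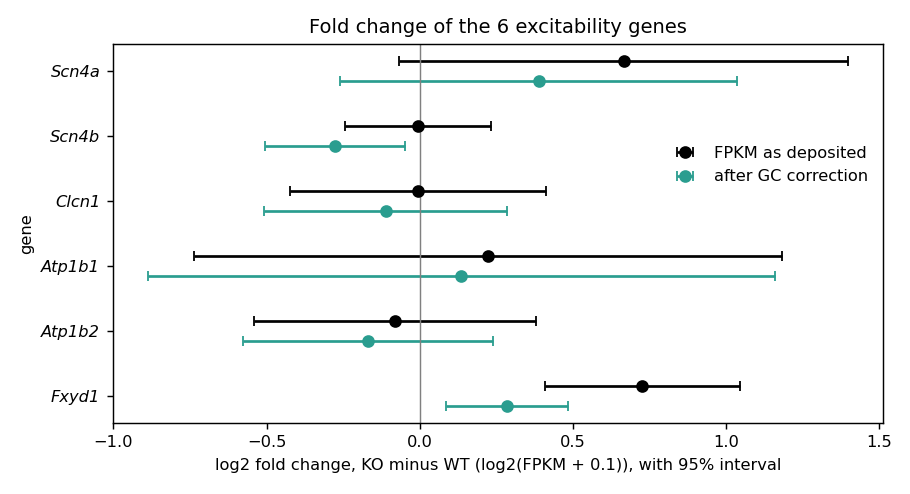
Log2 fold change of KO against WT with its 95% interval from limma, for the 6 genes, on FPKM as deposited (black) and after GC correction (green). With the FPKM as deposited only *Fxyd1* has an interval off 0, from 0.41 to 1.05. After correction that of *Fxyd1* runs from 0.085 to 0.48 and that of *Scn4b* lies under 0.

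FPKM are per length of transcript, so levels can be set beside each other. In WT muscle the order of the means was *Fxyd1* (182 FPKM), *Atp1b2* (92.97 FPKM), *Clcn1* (77.6 FPKM), *Scn4b* (52.7 FPKM), *Atp1b1* (44.4 FPKM) and *Scn4a* (27.03 FPKM), and the order was the same in KO muscle. In both genotypes *Fxyd1* lay above *Atp1b2* and *Clcn1* above *Scn4b* without overlap. *Atp1b2* and *Clcn1*, *Scn4b* and *Atp1b1*, and *Atp1b1* and *Scn4a* overlapped in both genotypes and held their order in 2 of 3 libraries of each.

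*Fxyd1* (57.1%), *Scn4a* (54.6%) and *Scn4b* (54.5%) were the most GC-rich, and *Clcn1* (51.96%), *Atp1b2* (51.7%) and *Atp1b1* (51.6%) lay near the median of 50.1% over all genes tested. Among genes within 1 percentage point of its GC content, 11.4% had a higher log2 fold change than *Scn4a*, 29.4% than *Atp1b1*, 66.2% than *Clcn1*, 74.2% than *Atp1b2* and 85.5% than *Scn4b*. *Scn4a* and *Scn4b* thus lay on opposite sides of genes of the same composition. Before the correction 3 of the 6 genes had a positive log2 fold change, and after it these were also 3.

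**Figure D4:**
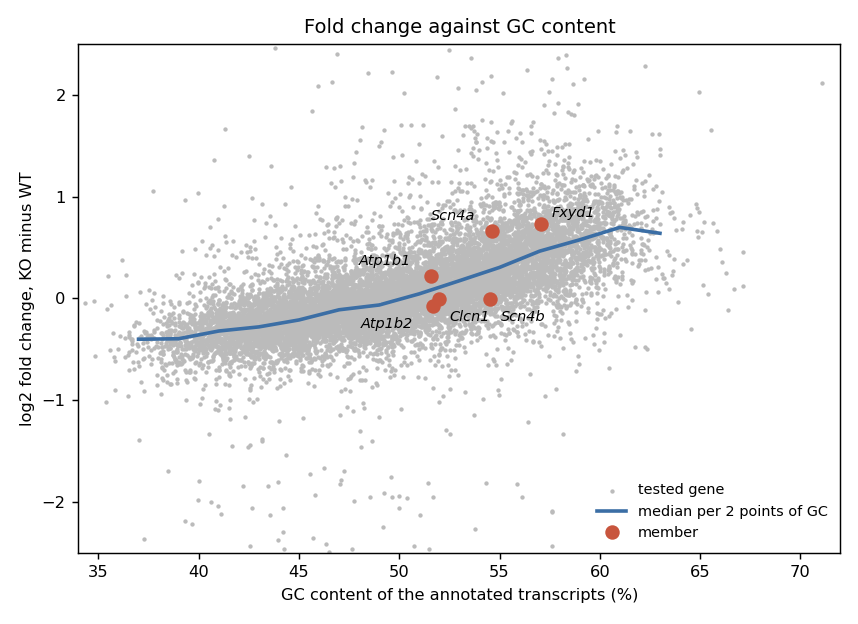
Log2 fold change of KO against WT (vertical axis) against the GC content of the annotated transcripts in percent (horizontal axis) for the tested genes (gray), with the median per 2 percentage points where at least 20 genes fall in a step (blue line) and the 6 members (red). Genes beyond 2.5 on the vertical axis are not drawn. *Fxyd1*, *Scn4a* and *Atp1b1* lie above the median line, and *Scn4b*, *Clcn1* and *Atp1b2* under it.

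The other channel and pump genes came from 6 lists and numbered 93, of which 70 passed the filter. Of these, 0 were called (limma put 10 higher and 9 lower at an unadjusted p under 0.05, 14.3% and 12.9% beside 15.3% and 10.9% of all genes tested). The KO values exceeded the WT values without overlap for 11 of them (15.7%, beside 18.3% of all genes tested) and were under for another 11 (15.7%, beside 16.2%), and their median log2 fold change was -0.04. After GC correction 0 were called, with 4 higher and 7 lower at an unadjusted p under 0.05 (limma), 5.71% and 10% beside 5.72% and 5.47% of all genes. The lowest adjusted p was 0.0634 before and 0.288 after the correction.

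The sodium channel genes in GAS muscle were few. Of 15 subunit genes, 4 passed the filter, of which 2 had higher and 2 lower values in KO muscle. In a list of 12 denervation genes, 1 of 8 tested was called (*Ncam1*, the neural cell adhesion molecule, limma adjusted p = 0.030, log2 fold change 1.41), beside 0.324% of all genes. The list went both ways, with 5 higher and 3 lower. At an unadjusted p under 0.05 (limma) *Myh8*, a developmental myosin, was also higher (1.147) and *Gadd45a* lower (-0.36), beside 15.3% and 10.9% of all genes. After GC correction 3 were higher and 5 lower, and *Ncam1* was still called (limma adjusted p = 0.030), beside 0.117% of all genes. *Myh8* was then at 1.23 and *Gadd45a* at -0.83. *Chrna1*, an acetylcholine receptor subunit gene, had a log2 fold change of -0.35 (-0.19 after GC correction), and *Chrng*, another such gene, was at 0.22 FPKM or less. Of 16 tested anchors and regulators of the sodium channel, 5 were higher and 11 lower, with a median log2 fold change of -0.11. Among those without overlap between the genotypes was *Camk2b*, a calmodulin-dependent kinase gene, at 30.2 ± 6.96 FPKM for WT against 44.4 ± 1.07 FPKM for KO muscle (SD, n = 3 each). Calmodulin gene *Calm2* was at 222 ± 13.1 FPKM for WT against 151 ± 30.5 FPKM for KO muscle (SD, n = 3 each). Their limma adjusted p-values were 0.107 and 0.0962, and their log2 fold changes of 0.58 and -0.57 became 0.21 and -0.31 after GC correction.

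Of 18 tested chloride channel and transporter genes other than *Clcn1*, 11 had higher and 7 lower values in KO muscle, with a median log2 fold change of 0.24 (0.17 after GC correction). *Slc12a4*, which encodes the potassium-chloride cotransporter KCC1, had the largest change of the 6 lists among genes without overlap. It was at 2.35 ± 0.344 FPKM for WT against 4.95 ± 0.624 FPKM for KO muscle (SD, n = 3 each), a log2 fold change of 1.05 (standard error 0.16, limma adjusted p = 0.0634), and 0.58 after GC correction. *Ano8*, of the anoctamin family, was at 1.44 and 2.59 FPKM (means of WT and KO), and *Clcn2*, a chloride channel paralog of *Clcn1*, at 0.938 and 1.56 FPKM. Their limma adjusted p-values were 0.0798 and 0.122, and both log2 fold changes were 0.19 after GC correction.

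Of the 12 tested genes for factors that act on the splicing or turnover of ClC-1, 3 were higher and 9 lower, with a median log2 fold change of -0.19 (-0.001 after GC correction). *Mbnl1*, a splicing factor whose loss disrupts *Clcn1* splicing in myotonic dystrophy, was at 74.5 ± 6.96 FPKM for WT against 53.2 ± 11.1 FPKM for KO muscle (SD, n = 3 each), and *Celf2*, a splicing factor of the CELF family, at 17.7 ± 1.65 and 13.5 ± 1.62 FPKM. *Fkbp8*, a co-chaperone of ClC-1, was at 16.6 ± 2.98 FPKM for WT against 28.7 ± 2.39 FPKM for KO muscle (SD, n = 3 each). None of the 3 was called (limma adjusted p = 0.126, 0.132 and 0.0667), and their log2 fold changes went from -0.50, -0.39 and 0.80 to -0.15, -0.13 and 0.23 with GC correction. Splice forms of *Clcn1* were not measured in a table of whole genes.

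Of the 9 tested pump subunit genes that are not members, 7 were higher and 2 lower. *Fxyd6*, another regulatory subunit of that family, was picked after its values were seen. It had the largest log2 fold change of the list (1.04, limma adjusted p = 0.255, and 0.85 after GC correction). It was at 21.6, 12.9 and 5.32 FPKM for WT replicates 1, 7 and 8, against 13.6, 37.2 and 26.2 FPKM for KO replicates 1, 7 and 8, with WT replicate 8 the lowest. Among 13 tested pump regulators and sodium exchangers, 6 were higher and 7 lower, with a median of -0.10. *Prkacb* and *Prkar1a*, subunits of protein kinase A, which phosphorylates FXYD1, were at 17.9 ± 2.03 and 36.4 ± 0.408 FPKM (SD, n = 3) in WT and 12.9 ± 1.50 and 30.5 ± 5.22 FPKM (SD, n = 3) in KO muscle. Their limma adjusted p-values were 0.101 and 0.264, and their log2 fold changes of -0.47 and -0.27 were -0.26 and -0.11 after GC correction.

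**Figure D5:**
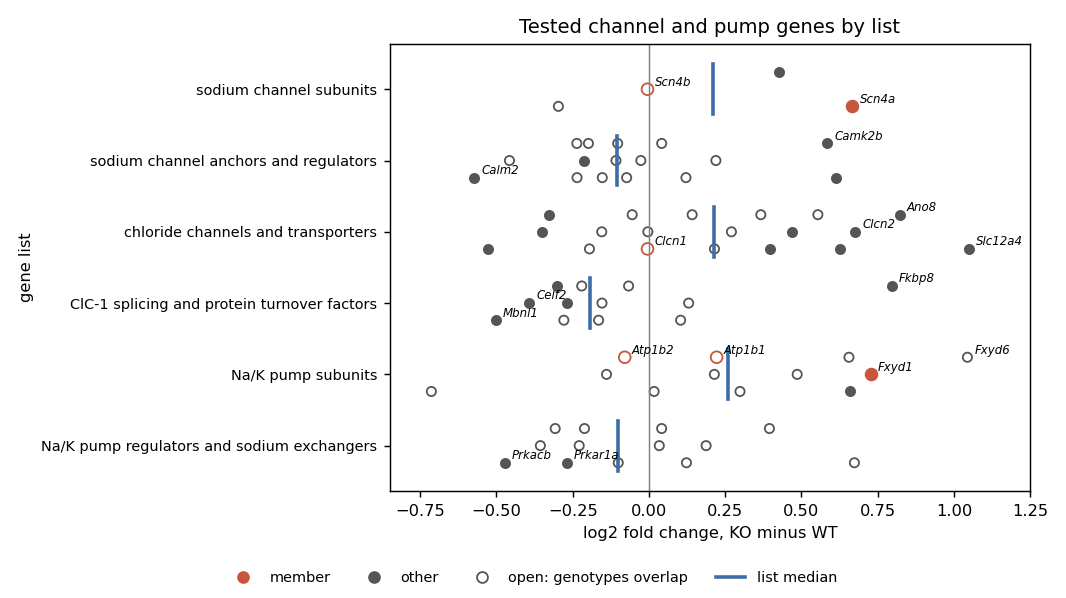
Log2 fold change of KO against WT for each tested gene of the 6 channel and pump lists (rows), with the members in red and the list median as a blue line. Filled points are genes whose libraries do not overlap between the genotypes. The medians lie between -0.19 and 0.26, and *Slc12a4* (1.05) lies farthest from 0 among the filled points.

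The genes whose profile over the 6 libraries was most like that of a member were searched among 10677 tested genes, by the root mean square difference of log2 values after each profile was centered. For *Fxyd1* these were *Rnpepl1* (0.039) and *Arl2* (0.043), for *Scn4a* *Pias4* (0.062) and *Relb* (0.073), for *Clcn1* *Hectd2* (0.051) and *Npat* (0.052), for *Scn4b* *Grpel1* (0.029) and *Arnt* (0.031), for *Atp1b2* *Hspb8* (0.064) and *Sec22c* (0.065), and for *Atp1b1* *Il15* (0.13) and *Gm11716* (0.13). The member's own profile spanned 1.03 for *Fxyd1*, 1.70 for *Scn4a*, 0.68 for *Clcn1*, 0.21 for *Scn4b*, 0.70 for *Atp1b2* and 1.57 for *Atp1b1*. *Pias4*, for example, was at 2.72 FPKM in WT replicate 1, 5.74 and 5.81 FPKM in WT replicates 7 and 8 and 6.15 to 9.48 FPKM in the KO libraries, the order of *Scn4a*.

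Marker lists were checked beside these genes. Skeletal muscle markers were high in all libraries (*Acta1* at 5029 to 13917 FPKM), and 5 of the 8 did not overlap and were higher in the KO mice, beside 18.3% of all genes tested, with summed levels of 11199 to 17771 FPKM in WT and 22812 to 26628 FPKM in KO muscle. At an unadjusted p under 0.05 (limma), 5 of the 8 were higher, beside 15.3% of all genes tested. After GC correction 2 were, beside 5.72%. The part of the muscle marker levels in the *Fxyd1* and *Scn4a* values was not tested. The 5 include *Ttn* (titin), the 1 called gene of the list, which is listed at 0 in every WT library. Genes that muscle fibers use are listed at 0 elsewhere in this table too, so the zeros of *Ttn* can be failed estimates, and its call is not read as a difference in expression. All 10 slow fiber genes had a positive log2 fold change (median 1.51) with 0 called and 0 without overlap (0 also at an unadjusted p under 0.05, limma), and their summed levels were 66.3 to 1116 FPKM in WT and 417 to 2167 FPKM in KO muscle. Of 9 tested fast fiber genes, 5 were higher and 4 lower (sums of 56599 to 76333 and 55585 to 77307 FPKM), and *Myh4*, *Atp2a1* and *Tnnt3* are listed at 0 in all libraries. After GC correction 2 fast fiber genes were higher and 7 lower, with a median log2 fold change of -0.13 (0.17 before). Only *Myh2* of that list was without overlap, and it was higher (0.75, limma adjusted p = 0.0932, and 0.61 after GC correction). Adipocyte genes had 5 of 5 higher, with 3 at an unadjusted p under 0.05 (limma), beside 15.3% of all genes tested (sums of 225 to 426 and 274 to 529 FPKM). The sums were 28.2 to 104 and 31.996 to 134 FPKM for Schwann cell and nerve markers (5 of 9 tested), 40.5 to 45.3 and 41.2 to 54.8 FPKM for endothelial, 393 to 558 and 375 to 468 FPKM for fibroblast, 3.17 to 9.27 and 6.35 to 12.8 FPKM for leukocyte, 63.4 to 89.9 and 63.1 to 83.5 FPKM for smooth muscle and pericyte, 6.84 to 7.90 and 9.14 to 10.6 FPKM for satellite cell, 4.06 to 14.1 and 4.22 to 17.4 FPKM for cardiac, and 242 to 314 and 266 to 547 FPKM for red blood cell markers, in WT and KO muscle. Of the adipocyte list and these last 8 lists, 0 genes were called, beside 0.324% of all genes tested. At an unadjusted p under 0.05 (limma), 3 adipocyte, 2 red blood cell and 2 smooth muscle genes were higher. So was 1 gene each of the endothelial, fibroblast and satellite cell lists, and 1 endothelial gene (*Kdr*, log2 fold change -0.44) was lower. Over all genes tested, 15.3% were higher and 10.9% lower at that threshold. All 5 tested smooth muscle and pericyte genes were without overlap, 4 higher and 1 lower in KO muscle, beside 18.3% and 16.2% of all genes. Their median log2 fold change was 0.57 (0.26 after GC correction). Also without overlap, and higher, were 2 adipocyte, 2 red blood cell, 1 endothelial and 1 satellite cell gene.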

How the data were processed

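The authors sequenced total RNA of GAS muscles from 3 WT and 3 KO mice (stranded mRNA libraries, per the labels), used TopHat for mapping to GRCm38, and obtained FPKM per gene from Cufflinks. The deposited table holds FPKM without counts, and versions and annotation release are not given in the sources used here.

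Genotype and replicate number were read from the sample titles. The test was limma 3.58.1 (R 4.3.3) with a variance trend, run on log2(FPKM + 0.1) of genes averaging 0.5 FPKM or more. Fold changes on this scale understate changes of low genes. P-values measure the spread between 3 mice per genotype. GENCODE vM21 (GRCm38) gave coordinates, length and GC content, with 32935 of 37979 identifiers found and GC content known for 97.2% of tested genes. For the GC correction, loess (span 0.3) was fitted to how far each library lay from the average library at each GC content, and the fit was subtracted. Depth was estimated from genes with 1 transcript of 1500 to 6000 bases, where 90.5% to 94.8% of low values lay within 0.15 of a whole fragment. Any 2 libraries had at most 1 identical value among 14983 genes above 0.

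The 6 members are all named. Other genes of the 6 lists are named where they are among the 3 largest changes without overlap in a list, and some of these are not reported here, and profile neighbors are the 2 nearest genes averaging 1 FPKM or more. The members and lists were chosen with earlier results of these data known. On simulated data of 11979 genes with 200 changed by 1.5 on the log2 scale, limma recovered 82% with 12 false calls. These values describe the simulated data. Whether they hold for the measured libraries, where the log2 fold change rose with GC content, was not tested. Recovery of smaller changes, such as the 0.73 of *Fxyd1*, the largest among the members, was not tested. Alternatives covered pseudocount, filter, scaling, variance model, array weights, replicate block, GC content, length, shared symbols, and each library left out in turn. Plots used matplotlib 3.10.9.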

Additional observations from a re-analysis of the deposited data

How the results depend on the processing

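Each log2 fold change was recomputed under 24 alternatives. *Scn4a* and *Fxyd1* kept a positive sign in all of them, with ranges of 0.28 to 0.86 (adjusted p 0.181 to 0.719) and 0.28 to 0.83 (adjusted p 0.00644 to 0.504). Array weights gave 1 called member, *Fxyd1* at 0.67, and the other 23 alternatives gave 0. With each library left out, the log2 fold change ranged from -0.18 to 0.60 for *Atp1b1*, from -0.29 to 0.064 for *Atp1b2*, from -0.17 to 0.17 for *Clcn1*, from -0.046 to 0.060 for *Scn4b*, from 0.28 to 0.86 for *Scn4a* and from 0.60 to 0.83 for *Fxyd1*. The sign turned for *Atp1b1* (-0.033 without KO replicate 7, -0.18 without WT replicate 8), *Atp1b2* (0.032 without KO replicate 7, 0.064 without WT replicate 7), *Clcn1* (0.17 without KO replicate 7, 0.058 without WT replicate 7, 0.0070 without WT replicate 8) and *Scn4b* (0.060 without KO replicate 1, 0.018 without WT replicate 7). Quantile normalization gave 0.014 for *Scn4b* and 0.00097 for *Clcn1*. Each value with a turned sign was smaller than the standard error of the reported change, and the cause was not tested. The *Atp1b1* to *Atp1b2* difference ranged from -0.17 to 0.89 and the *Clcn1* to *Scn4a* difference from -0.86 to -0.36 with each library left out.

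Counts over all genes were 31 higher and 9 lower as reported, and 6 and 8 after GC correction, 1863 and 1284 with array weights, 6 and 7 with the replicate block, 7 and 4 with a pseudocount of 1 FPKM, and 1 and 0 without genes listed at 0 in any library. Median scaling of the libraries moved the median log2 fold change of all genes to -0.08 and the share of higher genes from 51.0% to 42.5%. Same-numbered libraries of the genotypes had correlations of their deviations from -0.080 to 0.034, and libraries of different numbers from -0.066 to 0.086. What the shared numbers stand for is not given by the labels and cannot be told from these correlations. With the replicate block the log2 fold changes were 0.67 for *Scn4a* (adjusted p = 0.283) and 0.73 for *Fxyd1* (adjusted p = 0.120), and no member was called. The values of the members rest on at least 283 fragments each. Since each KO library was shallower than each WT library, depth and genotype cannot be told apart, and the part of depth in the results was not tested.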
